A study of Homo sapiens with 6 samples.

Results

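The genes described here act in homologous recombination and in the Fanconi anaemia pathway. The set is a list of 35 named genes, matched by Ensembl identifier and symbol, and all 35 were among the 19493 genes with a value in the deposited tables. Of these, 31 reached 1 cRPKM (RPKM computed on a corrected gene length) in at least 2 libraries and were tested, among 11926 genes in all that did so. The other 4, BRCA2, XRCC2, EME1 and FANCB, stayed under 1 cRPKM in every library and count as not measured.

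RNA was sequenced from HaCaT cells, an immortalised human keratinocyte line, made to carry the photolyase of the marsupial Potorous tridactylus, an enzyme that uses visible light to split the cyclobutane pyrimidine dimers that UV leaves in DNA. All 3 groups, of 2 libraries each, carried this photolyase. They were control cells (no irradiation, photolyase inactive), UVC cells (15 J/m2 at 254 nm, photolyase inactive, harvested 6 h later) and cells given the same irradiation plus 2 h of white light that activated the photolyase. No harvest time is listed for the control cells in the sample annotation used here. White light was given in the last group only, so the enzyme's activation and the light cannot be told apart. Whether both libraries of a group stem from different cultures is not stated in the labels, and the spread behind each p-value may then be technical.

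Homologous recombination repairs broken or collapsed replication forks by copying the sister chromatid. The MRE11-RAD50-NBN complex, RBBP8 (CtIP) and EXO1 trim the broken ends, BRCA1 with its partner BARD1, then PALB2 and BRCA2, prepare them for strand exchange, and BLM helicase and structure-selective nucleases take the joined molecules apart. The Fanconi pathway handles interstrand crosslinks: a core complex, anchored by FANCM and carrying the ubiquitin ligase FANCL, attaches ubiquitin to FANCD2 and FANCI, after which nucleases such as FAN1 act. Both pathways work mostly in S and G2 phase, and UV lesions reach them mainly where replication forks stall.

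Total counts per library ran from 57669389 to 70005705. All 10 keratinocyte markers listed were tested, and their summed level was 32070 to 32970 scaled cRPKM in control, 18520 to 18930 after UVC and 30820 to 30870 with active photolyase. KRT17 had the largest means in this sum (13680, 5471 and 12380, in the same order). After UVC 9 of the 10 were called lower, against 43.1% of all genes, and KRT5 was called higher (0.32 ± 0.06). Of markers of other cells, 1 of 7 for melanocytes, 2 of 9 for fibroblasts and 4 of 11 for immune cells were tested, and TYR, MS4A1, NKG7 and CD1A had a read count of 0 in every library. The immune markers summed to 133 to 146 in the control libraries, 181 to 183 in the UVC libraries and 188 to 199 in those with active photolyase, summed melanocyte markers 2.19 to 2.25, 1.49 to 1.74 and 1.35 to 1.49, and summed fibroblast markers 7.75 to 8.99, 8.77 to 8.99 and 9.99 to 10.5. Nearly all of the immune sum came from CD74 (means of 84.4, 130 and 112, in the same order) and CD68 (51.2, 48.7 and 79.4). PTPRC had at most 0.04 cRPKM. The part of these markers of other cells in the results was not tested.

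The promoters of the 2 members with the largest called fall after UVC (BARD1 and PALB2) and of the 2 with the largest called rise among those with a promoter entry (FANCM and FANCC) are shown because these transcripts mark the range of the responses described next. Each line is the 250 bases before the RefSeq start, 5′ to 3′ on the gene's strand, in GRCh38.p14, at chr2:214809684-214809933 (minus strand), chr16:23641311-23641560 (minus), chr14:45135680-45135929 (plus) and chr9:95317710-95317959 (minus), in that order. Capitals mark matches on either strand to 6 motifs that were searched: TTTCCCGC and TTTGGCGC (the E2F type), CCAAT (the CCAAT box), TTTGAA (the cell cycle homology region, CHR), GGGCGG (the SP1 type) and TGACGTCA (the cyclic AMP response element).
BARD1: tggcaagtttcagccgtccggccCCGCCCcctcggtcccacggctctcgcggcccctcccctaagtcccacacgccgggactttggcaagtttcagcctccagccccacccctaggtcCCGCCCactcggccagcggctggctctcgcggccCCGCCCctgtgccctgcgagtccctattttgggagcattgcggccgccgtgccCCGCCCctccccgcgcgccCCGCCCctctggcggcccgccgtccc
PALB2: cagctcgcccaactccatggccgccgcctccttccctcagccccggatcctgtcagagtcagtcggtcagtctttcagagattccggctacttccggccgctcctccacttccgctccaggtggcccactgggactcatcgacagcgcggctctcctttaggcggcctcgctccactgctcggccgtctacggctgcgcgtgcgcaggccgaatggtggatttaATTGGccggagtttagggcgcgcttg
FANCM: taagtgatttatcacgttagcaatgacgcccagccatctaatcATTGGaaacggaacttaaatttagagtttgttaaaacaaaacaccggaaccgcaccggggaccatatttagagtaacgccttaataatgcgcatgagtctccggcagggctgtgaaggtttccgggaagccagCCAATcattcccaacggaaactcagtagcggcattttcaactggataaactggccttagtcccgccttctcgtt
FANCC: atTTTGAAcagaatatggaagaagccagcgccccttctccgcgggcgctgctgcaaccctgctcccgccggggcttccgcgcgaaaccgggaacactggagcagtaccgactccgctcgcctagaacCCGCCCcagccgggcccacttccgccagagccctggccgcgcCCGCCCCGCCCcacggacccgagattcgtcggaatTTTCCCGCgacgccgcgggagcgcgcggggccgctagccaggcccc
BARD1 held 5 copies of GGGCGG, all on the opposite strand. PALB2 held a single CCAAT, also on the opposite strand, starting 26 bases before the start. FANCM had 2 matches to CCAAT and none to the other motifs. FANCC carried TTTCCCGC, TTTGAA and 3 copies of GGGCGG, and it was the 1 member of 31 with a promoter entry that matched an E2F-type motif (3.23%, against 1.42% of 27305 promoters for TTTCCCGC). Over the members GGGCGG was found in 19 (61.3%, against 42.3% of all promoters) and CCAAT in 10 (32.3%, against 33%). TTTGAA and TGACGTCA were each found in 2 (6.45%, against 13.6% and 1.77%). GGGCGG matched in 9 of the 15 promoters of members called higher after UVC and in 5 of the 8 of members called lower. CCAAT matched in 5 of the 15 and 4 of the 8. The members' promoters had a median GC content of 64.8%, against 58% for all promoters. NBN, RAD54B, WRN and FANCI had no entry.

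UVC against control asked what the radiation did to these transcripts when dimers were left in place. Members moved in both directions: by edgeR's quasi-likelihood test, 18 of 31 rose, 8 fell and 5 were not called. Over all 11926 genes 42.5% were called higher and 43.1% lower (85.6% in all), so the total of 26 called is close to the background. Counted by library, 18 members lay in UVC wholly above control and 9 wholly below it, and 4 overlapped, where 46.4% and 46.2% of all genes (92.6% together) were separated. The members' median log2 fold change was 0.28, against 0.00 for all genes. Changes of at least 2-fold were called for 5 members upward, against 9.89% of all genes, and for 4 downward, against 18.6%. The genes with called falls of at least 2-fold were BARD1, PALB2, FANCE and RBBP8, and those with such rises were FANCM, RAD54B, FANCC, MRE11 and FANCL. FANCM, RAD54B, BLM and SLX4, all called higher, would not have entered the test without the UVC libraries, which favoured a rise. The same holds for RAD54L and FANCD2, which were not called but count in the members' median. In this bulk RNA a change in the share of cells in S or G2 phase and a change of RNA per cell cannot be told apart. Of 20 genes of G1/S and replication 5 rose and 8 fell (median -0.14), and of 18 tested genes of G2/M 14 rose and 3 fell (median 0.44). Their part in the members' changes was not tested.

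Scaling sets the zero of these changes. With library totals in place of TMM factors (trimmed mean of M values), the median of all genes moved to 0.42 and the members' median to 0.70, with 23 members called higher and 5 lower. Of all 11926 genes 7095 were then called higher and 3542 lower, in place of 5074 and 5140. The falls of BARD1, PALB2, RBBP8, FANCE and BRIP1 were called under all alternatives that tested them, whereas those of EXO1, MUS81 and FANCF turned to 0.05, 0.15 and 0.08 with library totals.

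**Figure D1:**
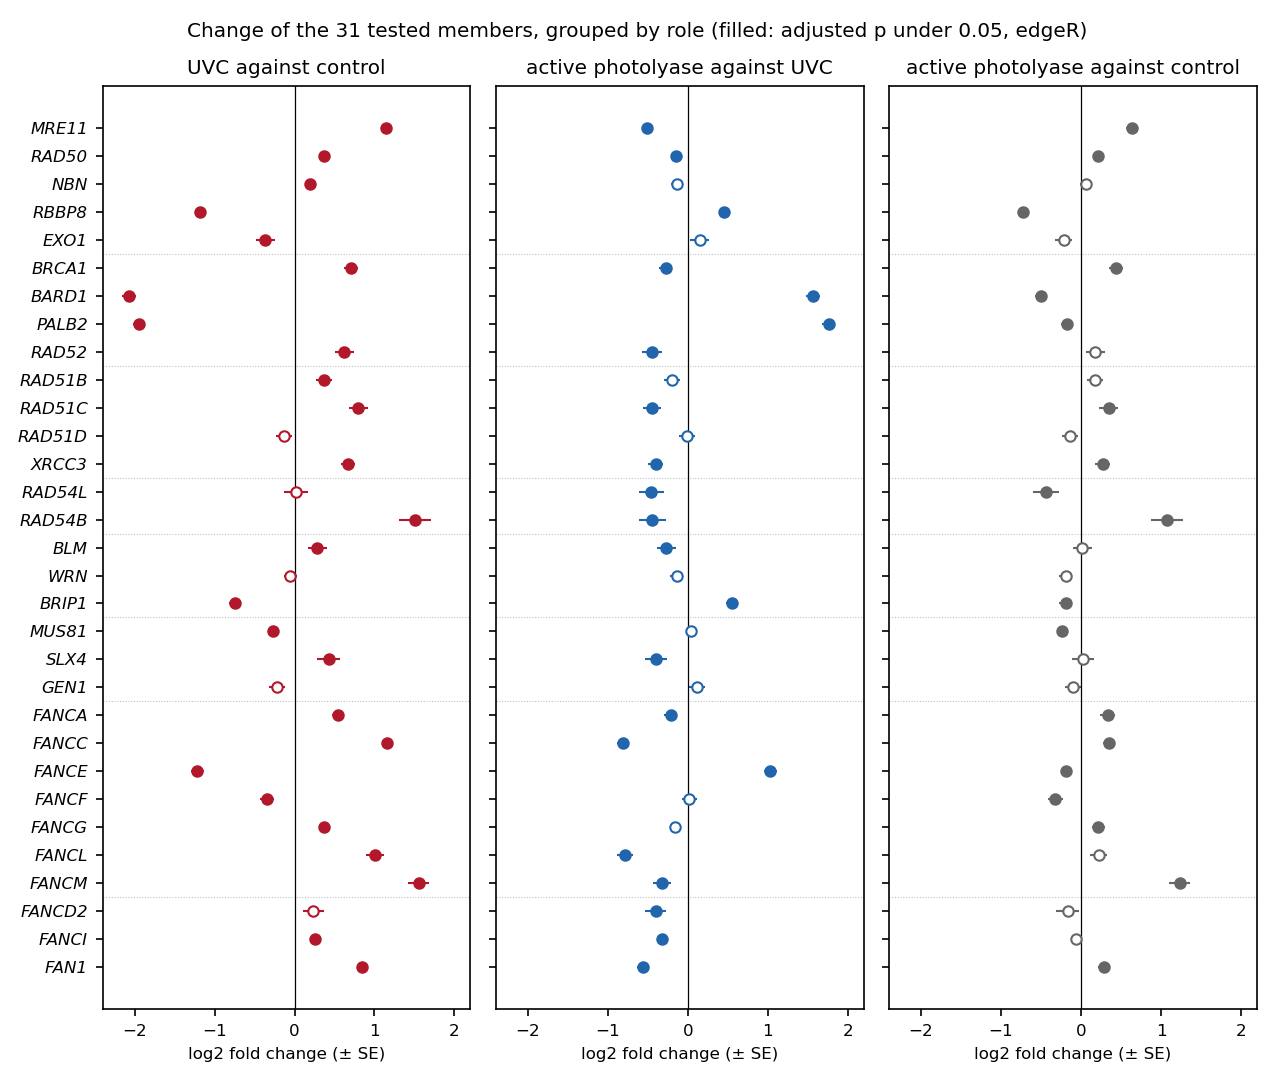
Log2 fold change with its SE (x axis) of each of the 31 tested members (y axis, grouped by role from end resection at the top to FAN1 at the bottom) in the 3 comparisons, from a fit to all 6 libraries. BARD1 (-2.07) and PALB2 (-1.94) lie lowest in the first panel and highest in the second (1.57 and 1.76). The first-panel falls of EXO1, MUS81 and FANCF turn above 0 with library totals.

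Among genes of end resection, the nuclease gene MRE11 went from 4.56 and 4.75 scaled cRPKM (the deposited cRPKM divided by the library's TMM factor) in the 2 control libraries to 10.29 and 10.31 after UVC. Its means were 4.65 ± 0.136 and 10.3 ± 0.00818 (SD, n = 2 in either group). By edgeR it rose 1.15 ± 0.07 (SE) on the log2 scale, with an adjusted p of 1.05e-09. The libraries of the groups did not overlap. RAD50, the ATPase of the same complex, rose less, from 5.19 and 5.71 to 7.08 and 6.95 (0.37 ± 0.06), and NBN, which binds the ATM kinase, from 5.36 and 5.68 to 6.27 and 6.37 (0.20 ± 0.07). The call of NBN was lost without control replicate 1, without UVC replicate 2 and with no filter on low values. The ratio of MRE11 to RAD50 was therefore 0.878 and 0.832 in control and 1.45 and 1.48 after UVC, whereas that of NBN to RAD50 was 1.03 and 0.994, then 0.886 and 0.916.

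RBBP8, which starts end trimming together with MRE11, was the most abundant member in control on this per-length scale, at 54.1 and 53.7 scaled cRPKM. After UVC it stood at 23.1 and 24.4, a fall by 1.18 ± 0.05 on the log2 scale (adjusted p = 4.49e-11). EXO1, the long-range exonuclease, went from 2.07 and 2.06 to 1.53 and 1.66 (-0.37 ± 0.12, adjusted p = 0.00918), and its call was also lost without UVC replicate 1.

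The mediator genes split. BARD1 was 4.73 and 4.20 scaled cRPKM in control and 1.01 and 1.12 after UVC, a log2 change of -2.07 ± 0.09 (adjusted p = 5.35e-11), or 23.9% of control. Its heterodimer partner BRCA1 rose from 1.17 and 1.30 to 2.02 and 2.01 (0.71 ± 0.09, adjusted p = 3.49e-06). BARD1 transcripts thus went from 4.03 and 3.23 per BRCA1 transcript, by length, to 0.498 and 0.555. This ratio does not depend on library scaling.

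PALB2, which joins BRCA1 to BRCA2, was 11.7 and 12.0 in control and 2.79 and 3.39 after UVC (-1.94 ± 0.08, adjusted p = 2.49e-11). Both UVC libraries lay far below the 4 others, the lowest of which was 10.47. RAD52, a strand-annealing protein, rose from 1.08 and 1.01 to 1.59 and 1.62 (0.62 ± 0.12). BRCA2 was just outside the 1 cRPKM limit, with deposited values of 0.55 to 0.99 cRPKM.

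**Figure D2:**
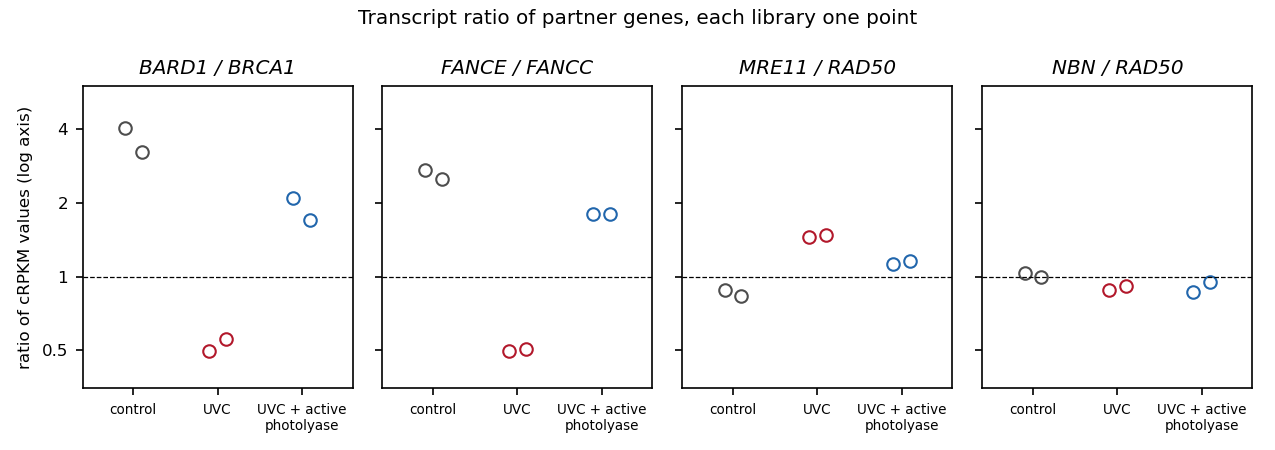
Ratio of the deposited cRPKM of partner genes (log y axis) in each of the 6 libraries (points), by group (x axis). BARD1 per BRCA1 starts at 4.03 and 3.23, drops to 0.498 and 0.555 in the UVC libraries and lies between them at 2.10 and 1.70 in the libraries with active photolyase, and FANCE per FANCC goes from 2.72 and 2.50 to 0.498 and 0.506, while NBN per RAD50 stays between 0.864 and 1.03.

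RAD51B, RAD51C, RAD51D, XRCC2 and XRCC3 belong to a family of related proteins that assist strand exchange. RAD51C rose from 2.57 and 2.41 to 4.50 and 4.13 scaled cRPKM (0.80 ± 0.12), XRCC3 from 4.46 and 5.58 to 8.12 and 7.84 (0.67 ± 0.09) and RAD51B from 2.32 and 2.50 to 3.06 and 3.16 (0.37 ± 0.10). RAD51D did not pass the test (-0.13 ± 0.10, adjusted p = 0.225), and with library totals its value was 0.29 and was called. XRCC3 is uncertain, since 76.7% of its exonic bases also lie in exons of KLC1 on the other strand in GENCODE 29, and the use of strand in counting is not given in the sources used here. KLC1 was at 39.7 scaled cRPKM in control and 25.2 after UVC, and it fell (-0.66 ± 0.05).

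Of the DNA translocases of homologous recombination, RAD54B rose from 0.339 and 0.362 to 1.03 and 0.972 (1.51 ± 0.20, adjusted p = 6.20e-06) and RAD54L did not pass (0.01 ± 0.15, adjusted p = 0.936). With library totals RAD54L was called higher (0.43). Of its exonic bases 25.1% lie in exons of LRRC41 on the other strand, which was at a mean of 29.3 scaled cRPKM in control, against 1.09 for RAD54L. RAD54B and FANCM lay just inside the 1 cRPKM limit, with highest deposited values of 1.22 and 1.15 cRPKM. Both, like RAD54L and FANCD2, reached it in the UVC libraries alone, so their entry to the test favoured a rise after UVC and a fall from UVC with active photolyase. The same holds for BLM and SLX4, which would not have entered without the UVC libraries. Outside these, each had 1.02 cRPKM in a single library and under 1 cRPKM in the rest.

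Among helicases, BRIP1 (FANCJ), which binds BRCA1, fell from 2.87 and 3.16 to 1.80 and 1.79 (-0.74 ± 0.08, adjusted p = 1.12e-06). BLM rose slightly, from 0.970 and 1.04 to 1.31 and 1.12 (0.28 ± 0.12, adjusted p = 0.0343), a call lost by DESeq2, with no filter, and without control replicate 1 or UVC replicate 1. WRN did not pass (-0.05 ± 0.08, adjusted p = 0.553) and was called higher with library totals (0.37).

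The nucleases that cut joined DNA molecules moved little. SLX4, the scaffold, had 0.767 and 1.15 in control and 1.35 and 1.24 after UVC (0.43 ± 0.14, adjusted p = 0.0112), and the call was lost without control replicate 1 or UVC replicate 1. MUS81 was 17.8 and 18.2, then 15.5 and 14.3 (-0.27 ± 0.06). Of its exonic bases 13.9% lie in exons of CFL1 on the other strand, whose level was 844 scaled cRPKM in control and 846 after UVC. GEN1 did not pass (-0.21 ± 0.10, adjusted p = 0.0649) but was called lower without control replicate 1, with RLE factors and with no filter, and stood at 0.20, not called, with library totals. EME1, the partner of MUS81, had at most 0.60 cRPKM.

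**Figure D3:**
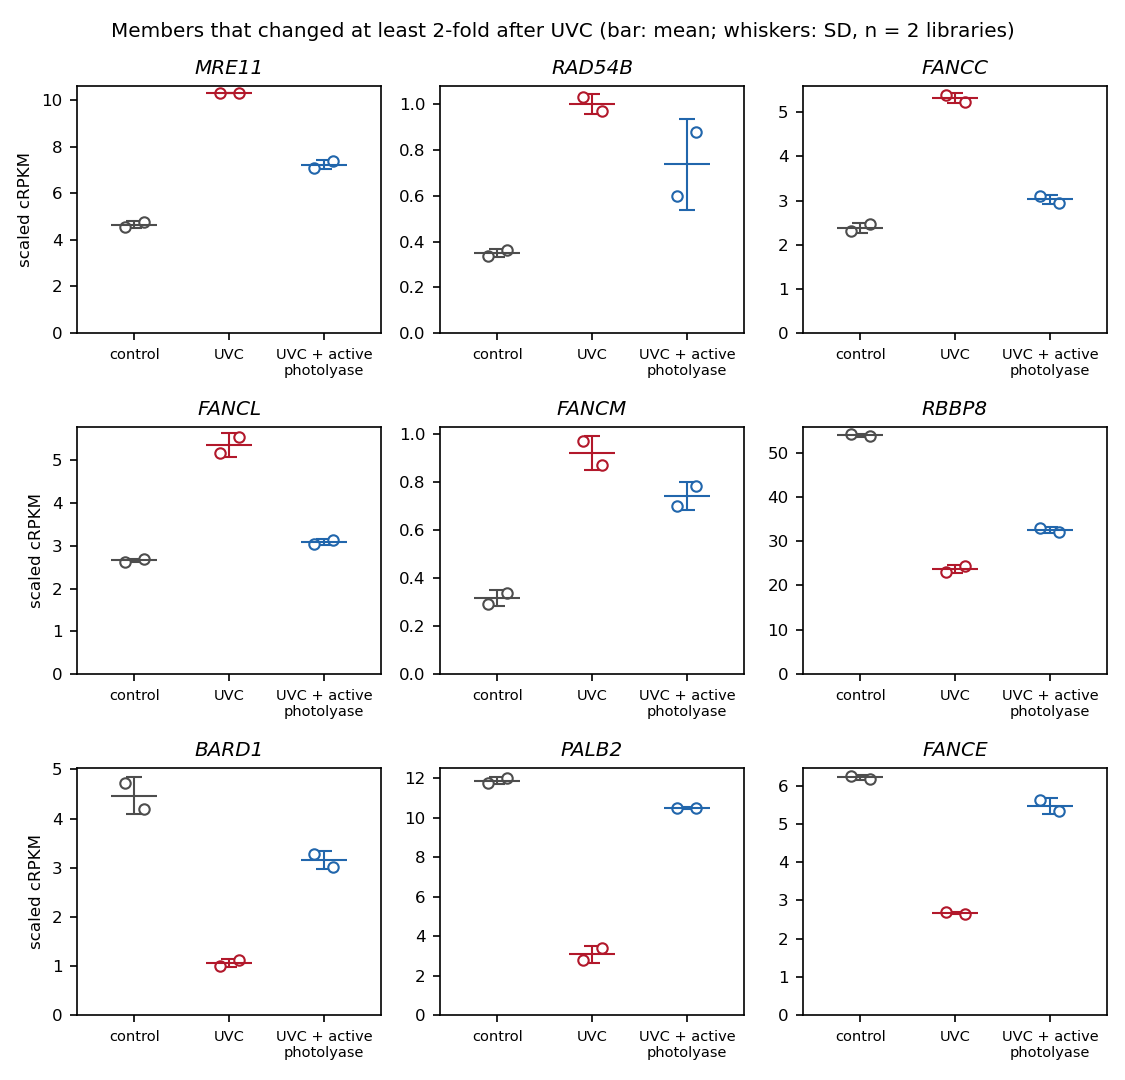
Scaled cRPKM (y axis, from 0) of the 9 members with called changes of at least 2-fold after UVC, by group (x axis), with each library as a point, the mean as a bar and the SD as whiskers (n = 2). In the 5 rising genes and the 4 falling ones alike, both UVC libraries lie outside the range of the control libraries, as for PALB2 with 2.79 and 3.39 against 11.7 and 12.0. The genes were chosen by this change, which favours such separation, and 92.6% of all genes were separated in this comparison.

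The Fanconi core complex also moved both ways. FANCM, the DNA translocase that anchors the complex, rose from 0.293 and 0.339 scaled cRPKM to 0.974 and 0.871 (1.55 ± 0.13, adjusted p = 6.16e-08). FANCC, an adaptor subunit, rose from 2.30 and 2.47 to 5.40 and 5.23 (1.16 ± 0.07, adjusted p = 2.68e-09). FANCE, which binds FANCC directly and links the complex to FANCD2, fell from 6.26 and 6.18 to 2.69 and 2.65 (-1.22 ± 0.08, adjusted p = 3.20e-09). There were 2.72 and 2.50 FANCE transcripts per FANCC transcript, by length, in control and 0.498 and 0.506 after UVC. FANCF, the third protein of that subcomplex, went from 3.35 and 3.51 to 2.63 and 2.77 (-0.34 ± 0.09).

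FANCL, the ubiquitin ligase, rose from 2.63 and 2.69 to 5.17 and 5.55 (1.01 ± 0.11, adjusted p = 8.44e-07). FANCA and FANCG, which bind each other, rose by 0.54 ± 0.08 and 0.37 ± 0.07. FANCA and FANCL share exonic bases with genes on the other strand (23.6% with ZNF276 and 18.7% with VRK2), and VRK2 fell (-0.79 ± 0.07). FANCB stayed under the limit, with deposited values of 0.42 to 0.99 cRPKM.

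The substrates of the ligase changed less than the ligase gene. FANCI rose from 12.39 and 12.49 to 14.89 and 14.82 (0.26 ± 0.05, adjusted p = 0.000581). FANCD2 was 0.903 and 1.11 in control and 1.29 and 1.07 after UVC, which overlap, and did not pass (0.23 ± 0.13, adjusted p = 0.113), though it was called higher without control replicate 2 and with library totals. FAN1, the nuclease recruited by the modified pair, rose from 3.95 and 3.81 to 6.90 and 7.07 (0.85 ± 0.07, adjusted p = 7.98e-08). Of its exonic bases 24.3% lie in exons of MTMR10 on the other strand, and MTMR10 fell (-0.94 ± 0.06).

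The span of a gene on the chromosome was set beside these changes, since it was not used to choose the members. Spans, in GENCODE 29 (GRCh38), ran from 2.95 kb for FANCF (chr11:22622890-22625841) to 910 kb for RAD51B (chr14:67819779-68730218), with a median of 73.3 kb against 30.2 kb for 11728 tested genes. The 7 members of 100 kb or more had a median log2 change of 0.37 after UVC, against -0.23 for the 2041 genes of that span, and they ranged from RBBP8 (228 kb, -1.18) to RAD54B (103 kb, 1.51). The 11 members of 50 to 100 kb had a median of 0.37 as well, against -0.23 for 2009 genes. The 8 of 20 to 50 kb had one of -0.06, against -0.13 for 3213 genes, and the 5 under 20 kb one of -0.27, against 0.28 for 4465 genes. RAD54B (103 kb), FANCM, FANCD2 and BLM (50 to 100 kb), and RAD54L and SLX4 (20 to 50 kb) would not have entered the test without the UVC libraries. Their entry favoured a rise after UVC, which bears on these medians and on the rho that follows. Across genes, Spearman's rho between span and log2 change was 0.20 over the 31 members and -0.24 over all, as a description, since genes share the same libraries and depth. BARD1 (84.1 kb) and FANCL (82.1 kb) had nearly the same span and opposite changes.

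**Figure D4:**
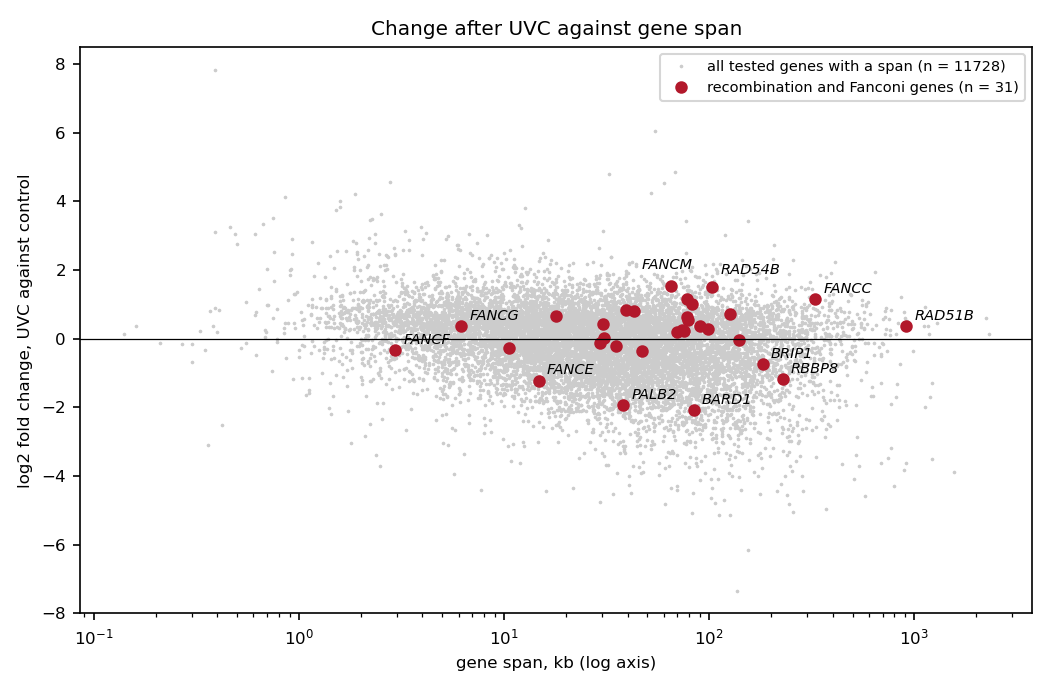
Log2 fold change of UVC against control (y axis) against the span of the gene in kb (log x axis), for 11728 tested genes (grey points) and the 31 members (red points, some named). FANCC (328 kb) and RAD51B (910 kb) lie above 0, and PALB2 (38.2 kb) and FANCE (14.7 kb) lie well below it. The span of FANCC begins at a start upstream of the promoter shown for it above.

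Active photolyase against UVC asked what photolyase activity, together with the white light, changed. Of the 31 members 5 rose and 17 fell, and 9 were not called. FANCM, RAD54B, RAD54L and FANCD2, which entered the test through the UVC libraries alone, are among the 17. So are BLM and SLX4, which would not have entered without those libraries. Over all genes 39.2% were called higher and 39.9% lower (79.1% in all). By library, 6 members lay wholly above UVC and 21 wholly below it, where 43.6% and 46.9% of all genes (90.5% together) were separated. The members' median was -0.21, against -0.04 for all genes. With library totals these medians were -0.52 and -0.34, with 5 members called higher and 24 lower, against 3318 and 6954 of all genes in place of 4676 and 4755. The rises were in PALB2, BARD1, FANCE, BRIP1 and RBBP8, of which the first 3 were at least 2-fold (14% of all genes). The falls were smaller, down to -0.81, and none was called at 2-fold or more (1.37% of all genes). This comparison shares the UVC libraries with the comparison above, so the values are given side by side and no overlap is drawn. Of the G1/S list 12 of 20 rose and 2 fell (median 0.25), and of the G2/M list 3 of 18 rose and 11 fell (median -0.27). Their part was not tested.

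PALB2 rose from 2.79 and 3.39 to 10.47 and 10.51 scaled cRPKM (1.76 ± 0.08, adjusted p = 1.11e-10). BARD1 rose from 1.01 and 1.12 to 3.28 and 3.02 (1.57 ± 0.09, adjusted p = 1.90e-09), and FANCE from 2.69 and 2.65 to 5.62 and 5.33 (1.03 ± 0.08, adjusted p = 3.18e-08). For each of these 3 genes both libraries with active photolyase lay above both UVC libraries and below both control libraries. BRIP1 rose by 0.55 ± 0.08, from 1.80 and 1.79 to 2.59 and 2.70. RBBP8 rose by 0.45 ± 0.05, from 23.1 and 24.4 to 32.98 and 32.03, and remained under its control level of 53.7 and 54.1. These 5 rises were called under all alternatives that tested them.

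Among the falls, FANCC went from 5.40 and 5.23 to 3.10 and 2.95 (-0.81 ± 0.07, adjusted p = 1.40e-07) and FANCL from 5.17 and 5.55 to 3.05 and 3.15 (-0.79 ± 0.10, adjusted p = 1.07e-05). FAN1 fell from 6.90 and 7.07 to 5.05 and 4.41 (-0.56 ± 0.07). MRE11 fell from 10.29 and 10.31 to 7.10 and 7.37 (-0.51 ± 0.06). FANCM, by contrast, was only slightly lower, at 0.702 and 0.784 after 0.974 and 0.871 (-0.32 ± 0.11, adjusted p = 0.0203). RAD54B was 0.597 and 0.878 after 1.03 and 0.972 (-0.44 ± 0.17, adjusted p = 0.0298), and its 2 libraries with active photolyase differed more from each other than those of the other groups.

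Smaller called falls were in RAD51C (-0.45 ± 0.11), RAD52 (-0.45 ± 0.12), RAD54L (-0.45 ± 0.16), XRCC3 (-0.40 ± 0.09), SLX4 (-0.40 ± 0.14), FANCD2 (-0.40 ± 0.13) and FANCI (-0.32 ± 0.05). BRCA1 (-0.27 ± 0.08), BLM (-0.27 ± 0.12), FANCA (-0.21 ± 0.08) and RAD50 (-0.15 ± 0.06) were the least of them. By DESeq2 the falls numbered 12, where 4366 of all genes were called lower in place of 4755. The falls also rested in part on single libraries. RAD50, BRCA1, RAD54L, RAD54B, BLM, SLX4, FANCA, FANCM and FANCD2 each lost the call without UVC replicate 1. All of these but RAD54L also lost it without replicate 1 of the active photolyase group. NBN, EXO1, RAD51B, RAD51D, WRN, MUS81, GEN1, FANCF and FANCG did not pass, with values from -0.19 (RAD51B) to 0.15 (EXO1). NBN (-0.14 ± 0.07, adjusted p = 0.0712) was called lower under 10 of its 16 alternatives. RAD51B, RAD51D, WRN, FANCG, MUS81 and FANCF were called lower with library totals, and EXO1 was called higher without replicate 1 of the active photolyase group. BARD1 per BRCA1 transcript came to 2.10 and 1.70, and FANCE per FANCC to 1.81 in both libraries.

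Active photolyase against control asked what differed, 6 h after UVC with the photolyase made active, from unirradiated cells. Of the 31 members 11 were higher, 8 lower and 12 not called, where 33% of all genes were called higher and 32.9% lower (65.8% in all). By library, 14 members lay wholly above control and 11 wholly below it, where 41.4% and 40.6% of all genes (82% together) were separated. Library totals gave 14 members higher and 2 lower, with the median of all genes at 0.12. Of all genes 5237 were then called higher and 2840 lower, in place of 3933 and 3919. In the G1/S list 14 of 20 genes were higher and 3 lower (median 0.22), and in the G2/M list 9 of 18 were higher and 2 lower (median 0.24), and their part was not tested. The median was 0.03, against 0.01. FANCM (1.24 ± 0.13, adjusted p = 3.03e-06) and RAD54B (1.07 ± 0.20, adjusted p = 0.000481) were the 2 members still at least 2-fold higher (4.06% of all genes). Both were under 1 cRPKM in all 4 libraries compared, and on log2(cRPKM + 1) their differences were 0.42 and 0.38. RAD54B stood at 0.76 without replicate 2 of the active photolyase group. MRE11 was higher by 0.64 ± 0.07, BRCA1 by 0.44 ± 0.09, RAD51C by 0.35 ± 0.12, FANCC by 0.34 ± 0.07, FANCA by 0.33 ± 0.09 and FAN1 by 0.29 ± 0.07. XRCC3 (0.27 ± 0.09), RAD50 (0.22 ± 0.06) and FANCG (0.22 ± 0.08) were the other members called higher. RBBP8 was the member furthest below control (-0.73 ± 0.05, adjusted p = 4.36e-08), followed by BARD1 (-0.50 ± 0.08, adjusted p = 0.000108).

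FANCF (-0.32 ± 0.09), MUS81 (-0.23 ± 0.06) and RAD54L (-0.44 ± 0.16) were also lower. RAD54L was under 1 cRPKM in all 4 libraries compared, and its call was lost under 7 of 15 alternatives. PALB2 (-0.18 ± 0.07, adjusted p = 0.0399), FANCE (-0.18 ± 0.07, adjusted p = 0.0375) and BRIP1 (-0.19 ± 0.08, adjusted p = 0.0476) were close to control, and their calls were lost under 9 of 16, 13 of 16 and 11 of 15 alternatives. PALB2, FANCE and BRIP1 each lost the call without control replicate 2 and without either library with active photolyase. Among members higher than control, RAD51C, XRCC3, FANCG and FAN1 lost the call without replicate 1 of the active photolyase group. FANCL (0.22 ± 0.11, adjusted p = 0.107), FANCI (-0.07 ± 0.06, adjusted p = 0.307) and BLM (0.02 ± 0.12, adjusted p = 0.907) were not called.

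A further list of 60 genes of the same pathways, not members of the set, was examined beside it, and 53 of the 54 found were tested. After UVC 27 rose (50.9%, against 42.5% of all genes) and 14 fell (26.4%, against 43.1%), with a median of 0.22. The largest falls were in RFWD3, a Fanconi-linked ubiquitin ligase that acts on RPA (-1.85 ± 0.05, from a mean of 21.3 to 5.88 scaled cRPKM), RNF168, which marks chromatin at breaks (-1.69 ± 0.05), and ERCC1, the partner of the crosslink nuclease ERCC4 (-1.37 ± 0.05). The largest rises were in the resection nuclease DNA2 (1.20 ± 0.11), TP53BP1, which opposes resection (1.11 ± 0.06), and the end-joining polymerase POLQ (0.96 ± 0.11). POLQ reached 1 cRPKM in the UVC libraries alone, so its entry favoured a rise after UVC.

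With active photolyase 12 of these 53 genes were higher than after UVC (22.6%, against 39.2% of all genes) and 24 lower (45.3%, against 39.9%), with a median of -0.17. RFWD3 (1.87 ± 0.05), RNF168 (1.63 ± 0.05) and RIF1, which acts with TP53BP1 (1.29 ± 0.07), rose most. EME2, a partner of MUS81 (-0.95 ± 0.17), UBE2T, the ubiquitin-conjugating enzyme of FANCL (-0.75 ± 0.08), and SHLD1, a shieldin subunit (-0.69 ± 0.21), fell most. SHLD1 would not have entered the test without the UVC libraries, which favoured this fall. Outside these, it had 1.21 cRPKM in a single control library and under 1 cRPKM in the rest. Against control 20 were higher (37.7%, against 33%) and 13 lower (24.5%, against 32.9%), with a median of 0.08. The highest were RMI2 (1.14 ± 0.08), SFR1 (0.88 ± 0.09) and POLQ (0.71 ± 0.12, with all 4 libraries under 1 cRPKM), and the lowest SHLD2 (-0.88 ± 0.17), SHLD1 (-0.70 ± 0.22) and ERCC1 (-0.61 ± 0.05).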

How the data were processed

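Per the labels, sequencing libraries of the 6 HaCaT samples came from Illumina Truseq kits. The submitters' processing notes name Bowtie and hg19. How reads were assigned to genes, whether strand was used, and which annotation served: not given in the sources used here. The authors deposited 2 values per Ensembl gene and library, the raw read count and the cRPKM (an RPKM on a corrected length), over 19847 genes of which 354 were empty.

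The main test on the counts was the quasi-likelihood F test of edgeR 4.0.16 under R 4.3.3 (TMM factors of 0.884 to 1.18, 3 group means fitted to all 6 libraries, 3 residual degrees of freedom). A gene entered with 1 cRPKM or more in 2 libraries. Two-sided p-values of all 11926 such genes were adjusted together (Benjamini-Hochberg) and called under 0.05. The SE is the size of the log2 fold change divided by the root of F. TMM takes most genes as unchanged, so changes are relative to the bulk of transcripts. Alternatives were library totals, RLE factors, DESeq2 1.42.0, limma 3.58.1 on log2(cRPKM + 1) or log2(cRPKM + 0.1), median-centring, a filter of 5 cRPKM, no filter, fits of the 2 groups compared, a replicate block, and each library left out.

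The members and lists were chosen with earlier results of these data known. All members are named, and the text gives both library values for those called with changes of at least 2-fold and for their partners. Of the further pathway list the 3 largest called rises and falls are named. Spans come from GENCODE 29 (GRCh38), matched by Ensembl identifier in place of RefSeq, and promoters from RefSeq (GRCh38.p14). No coordinates were converted between builds.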

Additional observations from a re-analysis of the deposited data

How the results depend on the processing

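Over 15 or 16 alternatives per gene, 20 of the 26 calls after UVC, 13 of 22 for active photolyase against UVC and 9 of 19 for active photolyase against control were kept in all. After UVC, members called lower numbered 5 with library totals, with either limma pseudocount and with median-centring. Of all genes 3542, 3528, 3494 and 4017 were called lower in these settings, against 5140 in the main fit. A filter of 5 cRPKM left 13 members and 8646 genes in the test. Members called then numbered 9 higher and 4 lower after UVC. With active photolyase they numbered 3 higher and 9 lower than after UVC, and 6 higher and 2 lower than in control. Of the 8646 genes, 3955 and 3674, 3393 and 3981, and 3002 and 2946 were called higher and lower in the 3 comparisons. Members lower than control with active photolyase numbered 2 with library totals, 4 by DESeq2, 3 with either limma pseudocount and 5 with median-centring. Of all genes 2840, 3664, 2732, 2641 and 3145 were called lower in these settings, against 3919 in the main fit. In the further pathway list 9 were lower after UVC with library totals and with either limma pseudocount, in place of 14 in the main fit. The filter of 5 cRPKM tests fewer of that list. Under it 6 were lower after UVC and 7 lower than control with active photolyase, in place of 14 and 13. The cause of these shifts was not tested.

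Leaving out 1 library gave members' median log2 changes of 0.24 to 0.36 after UVC, against 0.00 to 0.04 over all genes. With active photolyase relative to UVC they were -0.26 to -0.18, against -0.07 to -0.03. Relative to control they were -0.03 to 0.11, against 0.01. The numbers of members and of further-list genes called also moved, and members that lost a call are named above. Such a fit can leave 1 library in a group.

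After UVC, values turned above 0 with library totals, log2(cRPKM + 1) and log2(cRPKM + 0.1), in that order, for EXO1 (0.05, 0.03 and 0.04), RAD51D (0.29, 0.21 and 0.28), WRN (0.37, 0.26 and 0.35), MUS81 (0.15, 0.14 and 0.14), FANCF (0.08, 0.06 and 0.07) and DCTN5 (0.11, 0.11 and 0.11). With median-centring MUS81 was at 0.01. GEN1, called in none of these, was at 0.20, 0.16 and 0.21, and RAD51D, WRN and GEN1 were also above 0 with median-centring (0.08, 0.13 and 0.03). For active photolyase against UVC, values turned below 0 in the same order for MUS81 (-0.27, -0.25 and -0.27, and -0.17 with median-centring) and FANCF (-0.29, -0.21 and -0.28). So did EXO1 (-0.16, -0.10 and -0.15) and GEN1 (-0.19, -0.14 and -0.19), which were not called under any of the 3. Other changes of sign were of values called neither way.

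Same-numbered libraries did not deviate together (r = -0.0286, -0.0466 and 0.121 between groups over 11926 genes), so the numbers were not taken as pairs. A fit holding the replicate block called 18 and 8, 5 and 17, and 11 and 8 members in the 3 comparisons, the same counts as without it, but with active photolyase against UVC BLM lost its call of a fall and NBN gained one.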

Other observations

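The start of PALB2 lies 156 bases from that of DCTN5, which is read in the other direction. After UVC PALB2 changed by -1.94 ± 0.08 and DCTN5, a dynactin subunit gene, by -0.30 ± 0.05 on the log2 scale, from a mean of 22.9 to 18.5 scaled cRPKM, a change that turned to 0.11 with library totals. MRE11 and ANKRD49 start 140 bases apart on opposite strands. MRE11 rose by 1.15 ± 0.07, while ANKRD49 fell (-0.64 ± 0.07), from a mean of 8.12 to 5.20. Among 6 such pairs with starts within 1000 bases and both genes tested, 5 had log2 changes of the same sign after UVC. These include GEN1 (-0.21 ± 0.10, not called) with SMC6 (-0.41 ± 0.06). The count rests on the scaling, since DCTN5 turned above 0 with library totals and PALB2 did not. How often such pairs share a sign over all genes was not examined. In the main fit MRE11 and ANKRD49 were the exception.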
